A study of Homo sapiens with 16 samples.

Results

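The heterogeneous nuclear ribonucleoproteins (hnRNPs) other than HNRNPC were followed in 4 human breast cancer lines. They comprised 10 genes chosen by symbol: HNRNPA1, HNRNPA2B1, HNRNPD, HNRNPF, HNRNPH1, HNRNPK, HNRNPL, HNRNPM, HNRNPR and HNRNPU. All 10 were listed in both expression tables, among 10799 transcripts in the first and 8980 in the second, with 1 transcript per gene. All 10 also passed the filter on low values, a mean of at least 10 over the RNA libraries and over the footprint libraries of a table. HNRNPC was measured beside them.

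Each line had 2 RNA-seq libraries and 2 libraries of ribosome-protected footprints (RPFs), the mRNA fragments that translating ribosomes shield from nuclease, giving 16 samples. The first table held parental MDA-MB-231 (MDA-Par in the labels), a triple receptor negative line labelled poorly metastatic, and MDA-LM2, its derivative labelled highly metastatic to lungs. The second held MDA-MB-231 cells with CRISPR interference, in which a catalytically dead Cas9 fused to a KRAB repressor is led to a promoter by a guide RNA. The guide was a control in sgControl (MDA-sgCTRL) and was directed at HNRNPC in sgHNRNPC. Cells of every line were grown in high-glucose DMEM with serum and lysed with cycloheximide, and RNA for sequencing was taken from the same lysates. MDA-LM2 is a single in vivo selected population, and knockdown lowers a transcript without removing the gene. The replicates were biological duplicates per the study's methods. Translational efficiency (TE) was the RPF value over the RNA value of a gene, and its change between lines was what remained of the log2 change in RPF once the log2 change in RNA was subtracted.

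hnRNPs coat nascent transcripts in the nucleus, where they steer splice site choice, 3′ end formation, export and decay, and many of them shuttle to the cytoplasm. They differ in the RNA letters they prefer. HNRNPC binds runs of U. HNRNPA1 and HNRNPA2B1 bind AG-rich motifs and often repress splicing, HNRNPF and HNRNPH1 bind runs of G, HNRNPK binds C-rich RNA through KH domains, HNRNPL binds CA repeats and HNRNPM binds GU-rich RNA. Many hnRNPs control the splicing of their own and of each other's transcripts, so the question was whether the other members moved with HNRNPC or against it.

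The listed transcripts were searched for runs of U in their 3′ UTRs, since HNRNPC recognises such runs. A C followed by 6 U (written T below) was present in the 3′ UTR of 8 of the 10 members, the exceptions being HNRNPD and HNRNPR, and in 42.9% of all 3′ UTRs of the first table and 43.2% of those of the second. The members held 17 such sites in 14819 bases of 3′ UTR, or 1.15 per kb, against 0.498 and 0.513 per kb over all listed transcripts. The listed HNRNPC transcript held none, but its 3′ UTR is only 117 bases long, against medians of 1167 and 1133 bases in the 2 tables. A count of 0 in so short a stretch says little. Only the transcript strand was searched, and a match is a string of letters and not a measured binding site. The sites of the 3 members whose RNA fell after HNRNPC knockdown (below) are shown, with up to 11 bases on either side and the C and 6 T in capitals, as read from GENCODE version 44 on hg38.
HNRNPM site 1: gcagttgcCTTTTTTaaacatcgata
HNRNPM site 2: aatttgaattaCTTTTTTaatgactgggg
HNRNPL site 1: atcttgtattcCTTTTTTttttttttttt
HNRNPH1 site 1: tcttggtcaacCTTTTTTttttttttttt
HNRNPH1 site 2: gtaagtttaagCTTTTTTtttttttaagt

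The HNRNPM sites lay at chr19:8488855-8488880 and chr19:8488976-8489004 on the plus strand, 9 and 133 bases after the stop codon. The HNRNPL site was at chr19:38836608-38836636 on the minus strand, where the run went on for 26 T. The HNRNPH1 sites were at chr5:179614790-179614818 and chr5:179614344-179614372 on the minus strand, with runs of 22 and 13 T. All 5 were 3′ UTR sequence. Such sites were also present in members whose RNA was not called after the knockdown, with 5 in HNRNPU, 3 in HNRNPA2B1, 2 in HNRNPK and 1 each in HNRNPF and HNRNPA1.

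Reads of HNRNPA1 cannot be fully told apart from those of HNRNPA1L2, an intronless copy of the gene that the tables list separately. Over 963 aligned coding bases the identity was 98.4%, and the longest identical stretch was 174 bases. Of the 30-base windows of the HNRNPA1 coding sequence 49.3% were also found in HNRNPA1L2, as were 16.0% of the 50-base windows of the transcript. HNRNPH1 shared 4.47% of its coding windows with relatives, and each other member shared under 1%. HNRNPC shared 13.9% of its coding windows, 12.8% with HNRNPCL1, and 2.19% of its transcript windows.

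In the first table the RNA libraries held 7517953 to 8193031 reads, recovered from the steps between values, and those of the second held 5141959 to 6164753. RPF totals were 650736 to 679726 normalised units per library in the first table and 158011 to 167928 in the second, with unknown depth in reads. The markers of MDA-MB-231 cells that were looked for (VIM, CD44, EGFR, KRT18, KRT8, LGALS1 and S100A6) were all listed, with RNA at the 94.6th percentile or above in every line. ESR1, PGR, CDH1, PTPRC, CD3E, PECAM1 and ALB were not listed. The HNRNPC guide lowered its target: HNRNPC RNA was 2162 and 2146 in sgControl and 1147 and 1183 in sgHNRNPC, a log2 change of -0.89 ± 0.05 (SE; limma adjusted p = 5.14e-28). HNRNPC RPFs were 73.4 and 111 in sgControl and 54.4 and 67.0 in sgHNRNPC (log2 change -0.57 ± 0.19, adjusted p = 0.467). In the first table HNRNPC RNA was 2768 and 2664 in parental cells and 2197 and 1930.3 in MDA-LM2 (log2 change -0.40 ± 0.12, adjusted p = 0.0618).

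The 10 genes were among the more abundant transcripts. Per kb of coding sequence, RPFs of the members lay between the 85.8th and the 98.7th percentile of listed transcripts over the 4 lines. HNRNPA2B1 had the highest RPF level per length and HNRNPR the lowest in every line, at 578 ± 12.1 and 124 ± 9.23 normalised units per kb in parental cells (SD, n = 2). Between them, HNRNPA1 and HNRNPK came next, at 526 ± 8.22 and 468 ± 3.98, followed by HNRNPH1 (353 ± 28.9), HNRNPF (292 ± 9.53), HNRNPU (289.5 ± 1.87), HNRNPD (272 ± 18.5), HNRNPL (251 ± 5.89) and HNRNPM (188 ± 21.7). This order was not the same in every line, and in MDA-LM2 HNRNPD (296 ± 3.12) stood above HNRNPF (264 ± 4.12). With the members ranked within each line, 8 of the 9 neighbouring pairs had replicates that did not overlap in parental cells. The count was 8 in MDA-LM2, 5 in sgControl and 4 in sgHNRNPC, each in the order of that line.

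The order of the RNA levels per kb of transcript was not shared between the tables. HNRNPL, which binds CA repeats, had the highest RNA level per length in parental cells, 1466 ± 29.1 normalised units per kb, and was among the lower members in sgControl, at 599 ± 5.18. HNRNPD, also called AUF1, a factor known for binding AU-rich elements of short-lived mRNAs, had the lowest in parental cells, 137 ± 1.74, at the 65.8th percentile of listed transcripts, against 722 ± 13.0 at the 96.0th percentile in sgControl. The tables were normalised separately, so these levels were not tested against each other.

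Because TE divides by RNA, the place of each gene on the TE scale moved with the RNA. HNRNPD had a log2 TE per length of 0.98 ± 0.12 in parental cells, above 98.7% of listed transcripts, and of -3.67 ± 0.32 in sgControl, above 39.8%. The median of the 10 members on that scale was at percentile 87.1 in parental cells and 42.6 in sgControl. As a share of the library total, HNRNPD RNA in sgControl was 7.99 times that in parental cells. The ratio was 4.60 for HNRNPA2B1, 3.10 for HNRNPA1 and 0.621 for HNRNPL, while the same ratio for RPFs lay between 0.692 and 1.18 in all 10. The totals are over different listed transcripts, so the size of these ratios depends on them. The transcript with the highest value held 18.2% and 18.1% of the sgControl RNA totals and was not matched to a gene symbol. In parental RNA the highest was a different one, PLCG2, with 5.83% and 5.36%. In normalised units HNRNPD RNA was 2216 in sgControl and 421 in parental cells.

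Over all genes, the RNA difference between the control lines went with base composition, and some members lay away from that trend. Across 8764 genes, the log2 RNA difference between sgControl and parental cells had a Pearson r of -0.83 with the GC content of the listed transcript, and the RPF difference had an r of -0.06. From the lowest to the highest of 10 bins of genes by GC content, the median RNA difference went from 1.09 to -2.48, while the median RPF difference was -1.83 and -1.90. HNRNPA2B1, with 38.4% GC, stood at 1.60 and HNRNPL, with 54.3%, at -1.29. HNRNPD stood at 2.39, against an upper quartile of 0.83 for genes of its bin, and HNRNPM at 0.20 against -0.66. HNRNPA1, HNRNPA2B1 and HNRNPH1 also lay above the upper quartile of their bins. These correlations are over genes that share the same libraries, and the part of base composition in the values was not tested. The control lines also differ in table and in CRISPR interference, and these cannot be told apart.

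**Figure D1:**
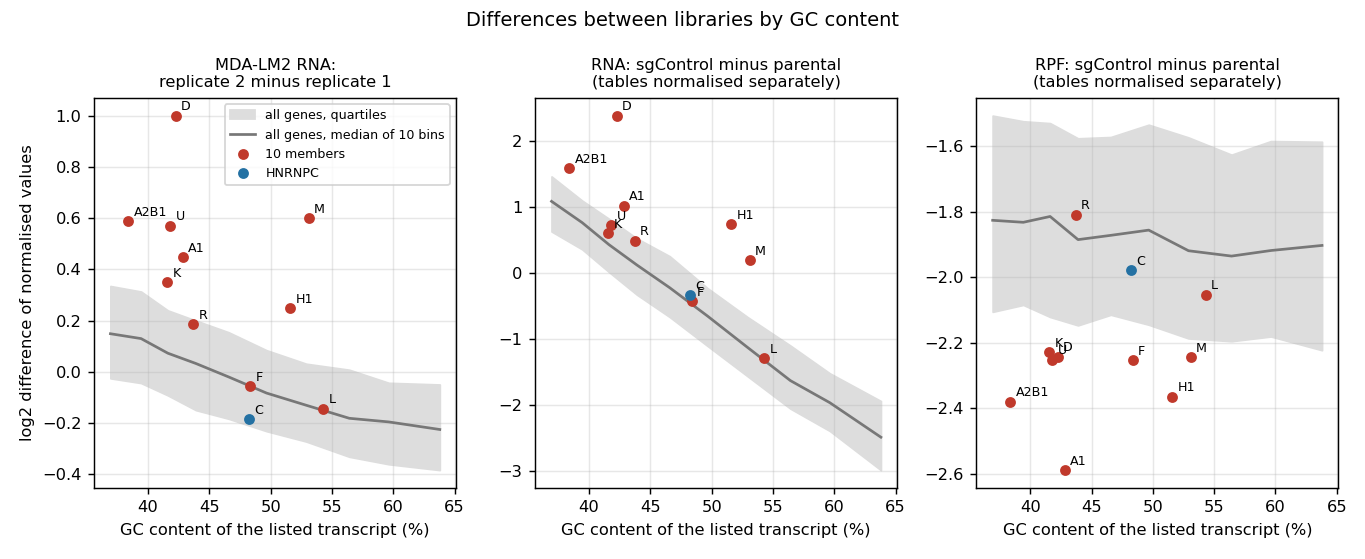
Log2 differences of normalised values against the GC content (%) of the listed transcript, for MDA-LM2 RNA replicate 2 minus replicate 1 (left), sgControl minus parental RNA (middle) and sgControl minus parental RPF (right). The grey line is the median of 10 bins of genes and the band spans their quartiles, red points are the 10 members, named without HNRNP, and the blue point is HNRNPC; both RNA panels slope down and HNRNPD stands highest in each, at 1.00 and 2.39.

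The first comparison asked whether the members differed between MDA-LM2 and parental cells. At the RNA level 0 of the 10 members passed the test, where 15.2% of the 8393 genes tested did (limma, Benjamini-Hochberg adjusted p under 0.05), and 0 of the 10 passed at an unadjusted p under 0.05, where 31.8% did. The replicates of the 2 lines overlapped in all 10, whereas 62.1% of all genes did not overlap. The members' changes ranged from -0.03 (HNRNPR) to 0.43 (HNRNPD), with a median of 0.12 where that of all genes tested was -0.02. In a bulk lysate a lower share of cells that express a gene and less of its RNA per cell cannot be told apart.

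The 2 MDA-LM2 RNA libraries did not give the same answer for these genes. HNRNPD RNA was 425 and 418 in parental cells, but 401 in MDA-LM2 replicate 1 and 804 in replicate 2. HNRNPA2B1 RNA was 2316 and 2432 in parental cells, and 2188 and 3289.6 in MDA-LM2. HNRNPM, a regulator of alternative splicing known for its part in the mesenchymal splicing of CD44, had 1631 and 1606 in parental cells, and 1328 and 2012 in MDA-LM2. In all 3, MDA-LM2 replicate 1 lay below both parental libraries and replicate 2 above both.

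The same held for HNRNPU, a chromatin-bound protein also known as scaffold attachment factor A, at 2407 and 2364 in parental cells against 2229.6 and 3312 in MDA-LM2. HNRNPA1 was 2561 and 2678 in parental cells, and 2604 and 3550.3 in MDA-LM2. HNRNPK was 2022 and 2192 against 2104 and 2681. In HNRNPA1 and HNRNPK only MDA-LM2 replicate 2 left the parental range. HNRNPH1, at 1659 and 1763 against 1639.5 and 1949, and HNRNPR, a relative of SYNCRIP, at 1041 and 1042 against 959 and 1091, again had replicate 1 below both parental libraries and replicate 2 above both, by less. HNRNPL straddled the parental range the other way round, with 3184 and 3096 against 3251 and 2941. HNRNPF had 1954 and 2059 against 2110.2 and 2029.6, where replicate 1 was above both parental libraries and replicate 2 between them.

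Expressed as replicate 2 over replicate 1, the members' median log2 difference was 0.40 in MDA-LM2 RNA, with 8 of 10 above 0, where the median of all genes was -0.04 with an SD of 0.31. It was 0.03 in parental RNA, -0.05 in sgControl RNA, and -0.0031 in MDA-LM2 RPF, made from the same lysates. The largest members in this respect were HNRNPD (1.00), HNRNPM (0.60), HNRNPA2B1 (0.59) and HNRNPU (0.57). Across 8215 genes the MDA-LM2 RNA difference had an r of -0.39 with GC content and of 0.34 with log2 transcript length. With the trend on GC content and length taken out of every library, the members' median was 0.32, with 8 of 10 above 0. That of all genes was then -0.05, with an SD of 0.28. The cause of the difference between these 2 libraries was not tested. Without MDA-LM2 replicate 1, 7 members were called higher (HNRNPA1, HNRNPA2B1, HNRNPD, HNRNPH1, HNRNPK, HNRNPM and HNRNPU), in a fit that called 4235 of the 8393 genes. Without MDA-LM2 replicate 2, 1 was called, and it was HNRNPM, lower, in a fit that called 2828 genes. The HNRNPM change was 0.31 (adjusted p = 0.000678) in the first case and -0.29 (adjusted p = 0.00402) in the second. In these fits the remaining MDA-LM2 library was assumed to vary like the parental ones.

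**Figure D2:**
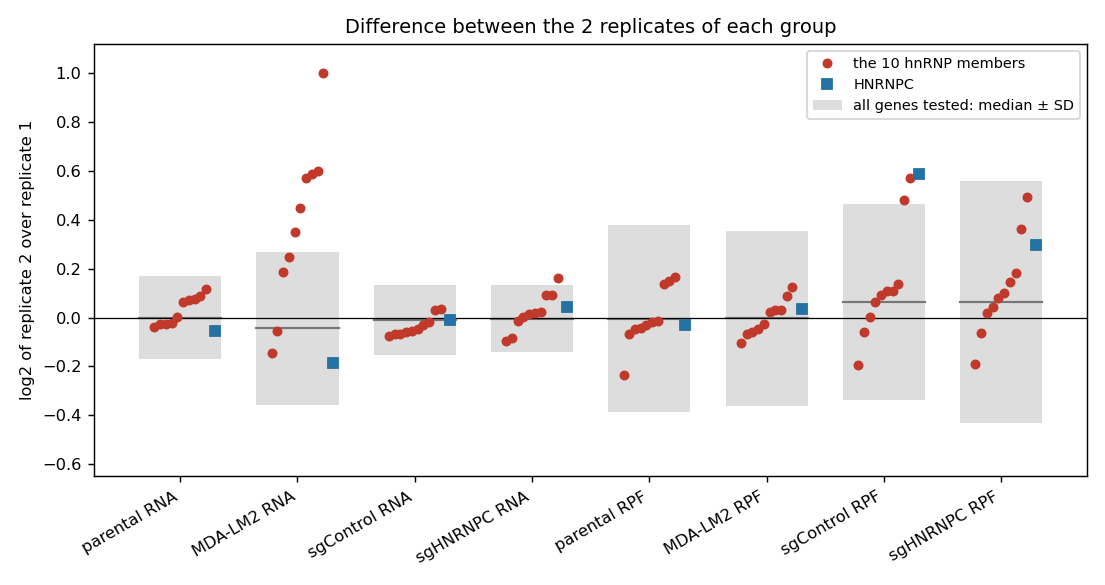
Log2 of replicate 2 over replicate 1 for each of the 8 groups of libraries: grey bars span the median ± SD of all genes tested, red points are the 10 members and blue squares HNRNPC. In MDA-LM2 RNA the members reach 1.00 with a median of 0.40, and HNRNPC lies at -0.19.

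By footprints the MDA-LM2 replicates were close, and 8 of the 10 members had a change below 0, where 51.1% of all genes did, a direction that turned for 4 of them under quantile normalisation. HNRNPA1 was the member called, at 596 and 583 RPF units in parental cells and 504 and 469 in MDA-LM2 (589 ± 9.20 against 486 ± 24.7, SD, n = 2). It fell by 0.28 on the log2 scale, with an SE of 0.09, a 95% interval of -0.46 to -0.09 and a limma adjusted p of 0.0412. Over all genes tested 12.0% were called, 5.00% higher and 7.03% lower, so 1 of 10 was near that share. The call depended on the setting. It was lost with no filter on low values, under both other scalings, without parental replicate 1 (adjusted p = 0.184), without parental replicate 2 (0.106) and without MDA-LM2 replicate 2 (0.255). It was also lost when HNRNPA1 was summed with HNRNPA1L2 (-0.22, adjusted p = 0.0950), whose own RPF change was -0.10 ± 0.11.

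HNRNPA2B1, the paralogue closest to HNRNPA1 among the members, had 622 and 604 RPF units in parental cells and 562 and 543 in MDA-LM2, a change of -0.15 ± 0.09 (adjusted p = 0.298). It was called lower only with the trend on GC content and length removed (-0.22, adjusted p = 0.0498). HNRNPF had 372 and 356 against 326 and 333, and HNRNPR had 225 and 250.0 against 206 and 225. HNRNPK, HNRNPL and HNRNPU also had both MDA-LM2 libraries below both parental ones, with changes between -0.05 and -0.08 that turned to between 0.04 and 0.08 under quantile normalisation. That made 7 members without overlap in the lower direction, against 27.6% of all genes tested.

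HNRNPD and HNRNPM were on the other side. HNRNPD had 276 and 304 RPF units in parental cells and 314 and 319 in MDA-LM2, a change of 0.13 ± 0.10 (adjusted p = 0.486). HNRNPM had 446 and 378 against 468 and 449, a change of 0.16 ± 0.10 (adjusted p = 0.335). These 2 of 10 compare with 25.7% of all genes without overlap in the higher direction. HNRNPH1 overlapped, at 449 and 504 against 444 and 472. The members' median RPF change was -0.08, where that of all genes was -0.01, and it was -0.020 with equal totals and 0.051 under quantile normalisation, where that of all genes was 0.04 and 0.0028.

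**Figure D3:**
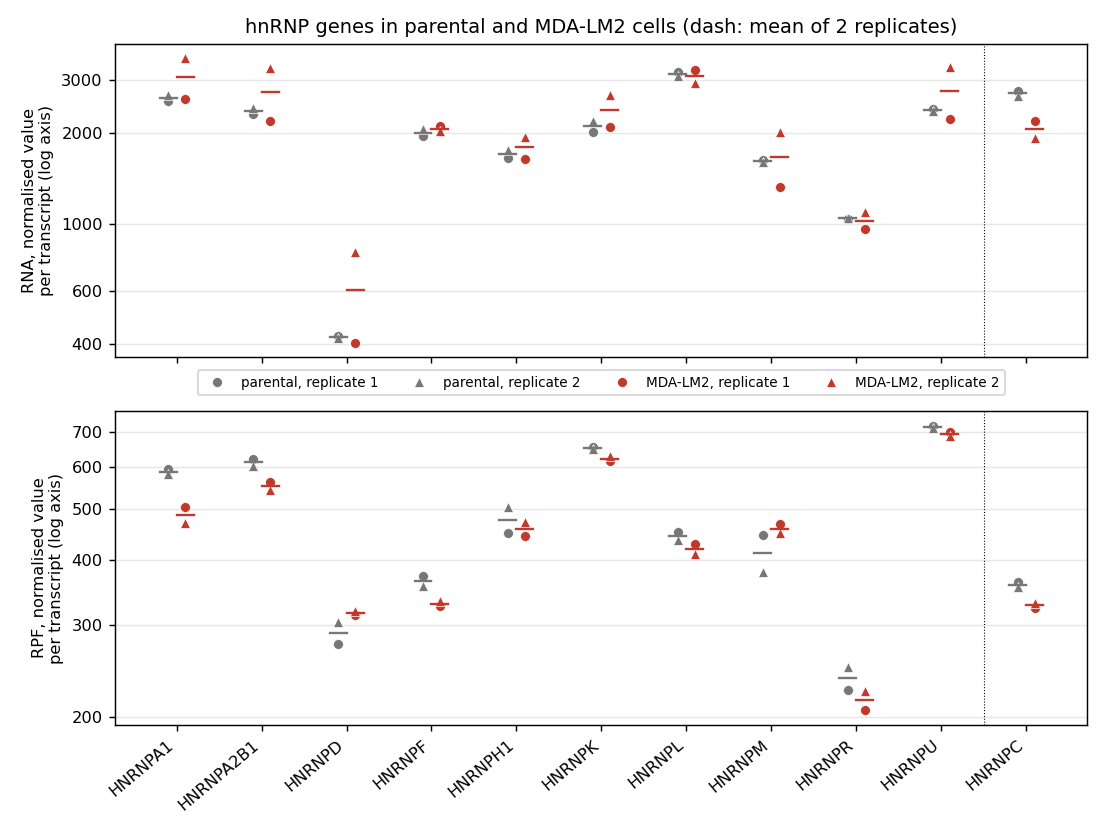
Normalised value per transcript (log axis) of RNA (top) and RPF (bottom) for the 10 members and, right of the dotted line, HNRNPC in parental (grey) and MDA-LM2 (red) cells; circles are replicate 1, triangles replicate 2 and dashes means. The MDA-LM2 RNA replicates are far apart for HNRNPD (401 and 804), while HNRNPA1 RPFs are 504 and 469 in MDA-LM2 against 596 and 583 in parental cells.

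No member's TE was called between MDA-LM2 and parental cells, in a test that called 3 of all genes (0.0357%). The changes were below 0 in 9 of 10, where 45.5% of all genes were, with a median of -0.21 against 0.03 over all genes, and ranged from -0.49 ± 0.19 (HNRNPA1, 95% interval -0.90 to -0.09) to 0.14 ± 0.23 (HNRNPM). HNRNPA1 was the 1 member under 0.05 before adjustment (limma adjusted p = 0.890), where 5.42% of all genes were. Its log2 TE was -2.10 and -2.20 in parental cells, and -2.37 and -2.92 in MDA-LM2. The median depended on the MDA-LM2 replicates: without MDA-LM2 replicate 1 the members' median TE change was -0.30, and without MDA-LM2 replicate 2 it was -0.06. In 5 members, HNRNPA1, HNRNPF, HNRNPK, HNRNPL and HNRNPR, both MDA-LM2 values lay below both parental ones, against 15.8% of all genes. Logistic regression, which takes normalised values as reads and leaves the spread between replicates out, called 5 members lower (HNRNPA1, HNRNPA2B1, HNRNPD, HNRNPK and HNRNPU) and 181 genes in all.

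The second comparison asked what the other hnRNPs did when HNRNPC was lowered. At the RNA level 3 of the 10 fell: HNRNPM, HNRNPL and HNRNPH1. None rose. Of the 4283 genes tested 16.0% were called, 4.72% higher and 11.3% lower. The sizes were small beside that of HNRNPC. The median change of the 10 members was -0.08, where that of all genes was -0.04, and 9 of 10 were below 0, as were 59.5% of all genes.

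HNRNPM RNA was 1901 and 1815 in sgControl and 1537 and 1638 in sgHNRNPC (1858 ± 60.7 against 1587 ± 71.2, SD, n = 2), and the groups did not overlap. It fell by 14.6%, a log2 change of -0.23 ± 0.05 with a 95% interval of -0.32 to -0.13 (adjusted p = 0.000254). The call held under every alternative run, with adjusted p between 0.000134 and 0.0278. Its gene is on chromosome 19, with the listed transcript at chr19:8444975-8489114.

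HNRNPL RNA was 1292 and 1276 in sgControl and 1132 and 1121 in sgHNRNPC, the tightest replicates of the 3. It fell by 12.3%, a log2 change of -0.19 ± 0.05 (adjusted p = 0.00646). Its listed transcript is at chr19:38836370-38849986. The call was lost under quantile normalisation (adjusted p = 0.0552), without sgHNRNPC replicate 2 (0.0656) and without sgControl replicate 1 (0.0549), with changes of -0.15 to -0.18 in these fits.

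HNRNPH1, a G-run binder that acts in splicing and in 3′ end formation, had RNA of 2914 and 2819 in sgControl and 2448 and 2609.6 in sgHNRNPC. It fell by 11.8%, a log2 change of -0.18 ± 0.04 (adjusted p = 0.00131), at chr5:179614179-179624669. The call was lost without sgHNRNPC replicate 1 (-0.14, adjusted p = 0.0908). HNRNPF, its paralogue, had RNA of 1483 and 1515 against 1536 and 1449, with a 95% interval of the log2 change of -0.11 to 0.09.

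The RNA of HNRNPA1, HNRNPA2B1 and HNRNPD was below sgControl in both sgHNRNPC libraries by amounts that were not called. HNRNPA2B1 had 7353 and 7021 in sgControl and 6709 and 6804 in sgHNRNPC (-0.09 ± 0.04, adjusted p = 0.106), and was called under quantile normalisation alone. HNRNPA1 had 5449 and 5235 against 5091 and 5098, and HNRNPD had 2188 and 2245 against 2085 and 2106, with changes of -0.07 and -0.08. Together with the 3 called members this made 6 of 10 without overlap in the lower direction, where 34.6% of all genes were.

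HNRNPK had 3295 and 3126 against 2846 and 3188, which overlapped, and was called lower only without sgHNRNPC replicate 2 (adjusted p = 0.0207). HNRNPU had 4035 and 3885 against 3832 and 3891, and HNRNPR had 1487 and 1456 against 1569 and 1469, the only member above 0 (0.05 ± 0.05). The 95% intervals of these 3 RNA changes lay within -0.18 and 0.14.

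**Figure D4:**
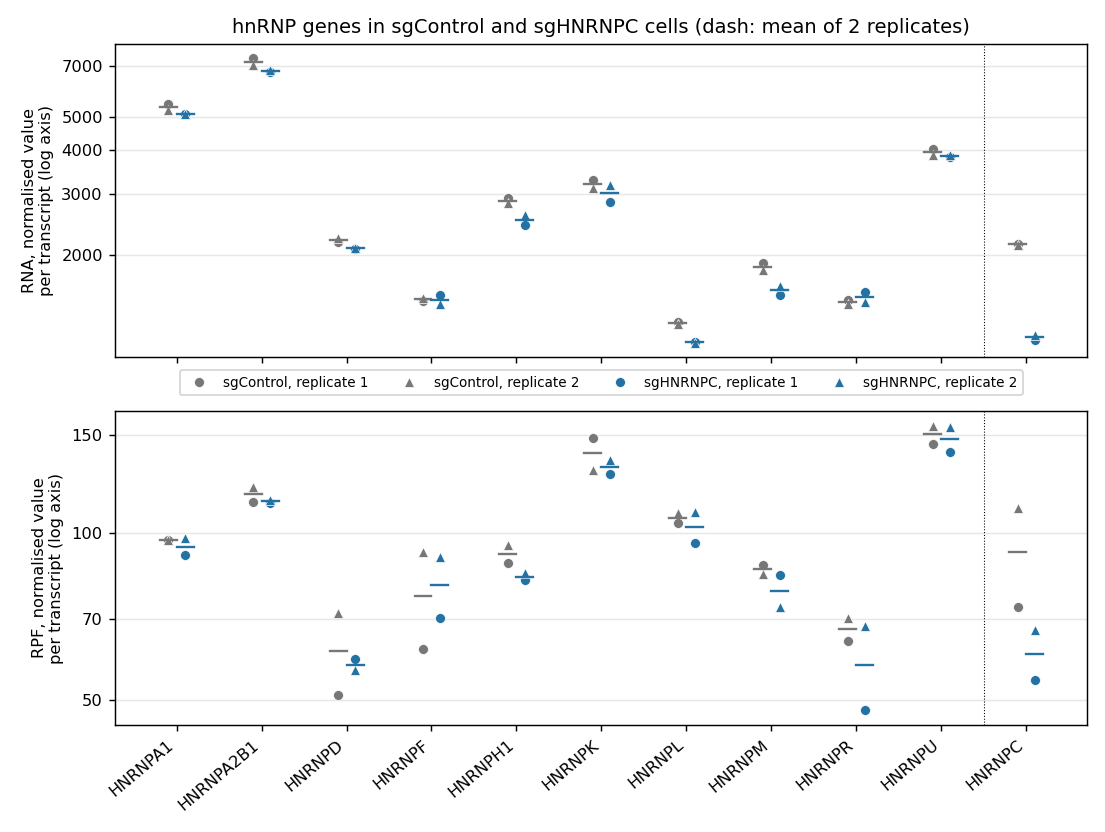
Normalised value per transcript (log axis) of RNA (top) and RPF (bottom) for the 10 members and, right of the dotted line, HNRNPC in sgControl (grey) and sgHNRNPC (blue) cells; circles are replicate 1, triangles replicate 2 and dashes means. HNRNPC RNA separates widely (2162 and 2146 against 1147 and 1183), while HNRNPM RNA moves from 1901 and 1815 to 1537 and 1638.

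By footprints 0 of the 10 members were called after HNRNPC knockdown, and 1 of all genes was (0.0233%). No member was under 0.05 before adjustment, where 7.68% of all genes were. RPF values in this table were low, between 47.9 and 156 for the members. HNRNPM had 87.6 and 84.2 RPF units in sgControl and 83.9 and 73.5 in sgHNRNPC, and HNRNPH1 had 88.2 and 95.1 against 82.1 and 84.6. These were the 2 members without overlap, both lower, where 17.1% of all genes were. HNRNPL had 104 and 109 against 95.9 and 109.

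For the 3 members whose RNA fell, the RPF changes were -0.13 ± 0.17 (HNRNPM), -0.06 ± 0.16 (HNRNPL) and -0.13 ± 0.17 (HNRNPH1). The intervals of all 3 held both 0 and the gene's RNA change, so an RPF change of the size seen in RNA was not detectable at this spread. Replicates were far apart in HNRNPF (61.8 and 92.4 in sgControl, 70.2 and 90.6 in sgHNRNPC) and in the sgControl libraries of HNRNPD (51.0 and 71.6, against 59.2 and 56.6 in sgHNRNPC). HNRNPR had the lowest RPF change, -0.23 ± 0.19, with 63.8 and 70.4 against 47.9 and 67.9.

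TE changes were called for 0 of the 10 members and for 0 of all genes (0%), and 332 genes, or 7.75%, were under 0.05 before adjustment. Logistic regression called 0 members and 11 genes. The members' TE changes ranged from -0.27 ± 0.21 (HNRNPR) to 0.13 ± 0.14 (HNRNPL), with a median of 0.04 against 0.06 over all genes, and 7 of the 9 values above 0 turned below it under quantile normalisation. For HNRNPM the TE change was 0.10, with an interval of -0.22 to 0.42.

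Set against HNRNPC, most members had the opposite sign in MDA-LM2 RNA and the same sign in MDA-LM2 RPFs and in the knockdown, by amounts that were mostly not called. In MDA-LM2 RNA 2 of 10 shared the sign of HNRNPC (HNRNPL and HNRNPR), against 52.6% of all genes, and the 95% interval of 1 member, HNRNPM, held the HNRNPC change of -0.40. Under both other scalings HNRNPL and HNRNPR were also above 0. Leaving out MDA-LM2 replicate 2 turned 8 of the 10 signs, so that this count rested on that library. In MDA-LM2 RPFs 8 of 10 shared the sign, against 51.1%, and the same 8 had intervals that held the HNRNPC change of -0.13, which was itself not called (adjusted p = 0.441). The signs of HNRNPH1, HNRNPK, HNRNPL and HNRNPU among them turned under quantile normalisation.

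After the knockdown 9 of 10 shared the sign of HNRNPC in RNA, against 59.5% of all genes, and 0 of 10 had an interval that held its change of -0.89. HNRNPC was the guide's own target, so the size of its fall cannot tell whether untargeted members moved with it. In RPFs 9 of 10 shared the sign of HNRNPC, against 47.3%, and the interval of HNRNPR alone held -0.57. No member's RPF change was under 0.05 before adjustment, and that of HNRNPC was not called (limma adjusted p = 0.467). Among the 9, the signs of HNRNPA1, HNRNPA2B1, HNRNPD, HNRNPK, HNRNPL, HNRNPR and HNRNPU turned when some replicate was left out. In TE 1 of 10 (HNRNPM) shared the sign of HNRNPC in MDA-LM2, against 54.5% of all genes, and 9 of 10 did after the knockdown, against 57.7%. The TE change of HNRNPC was 0.27 ± 0.15 in MDA-LM2 and 0.31 ± 0.25 in the knockdown, neither called (adjusted p = 0.903 and 0.758). HNRNPM fell with HNRNPC in knockdown RNA, and in MDA-LM2 RPFs stood at 0.16 where HNRNPC stood at -0.13. Whether any member's change differed between the comparisons was not tested, as the tables were normalised apart.

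**Figure D5:**
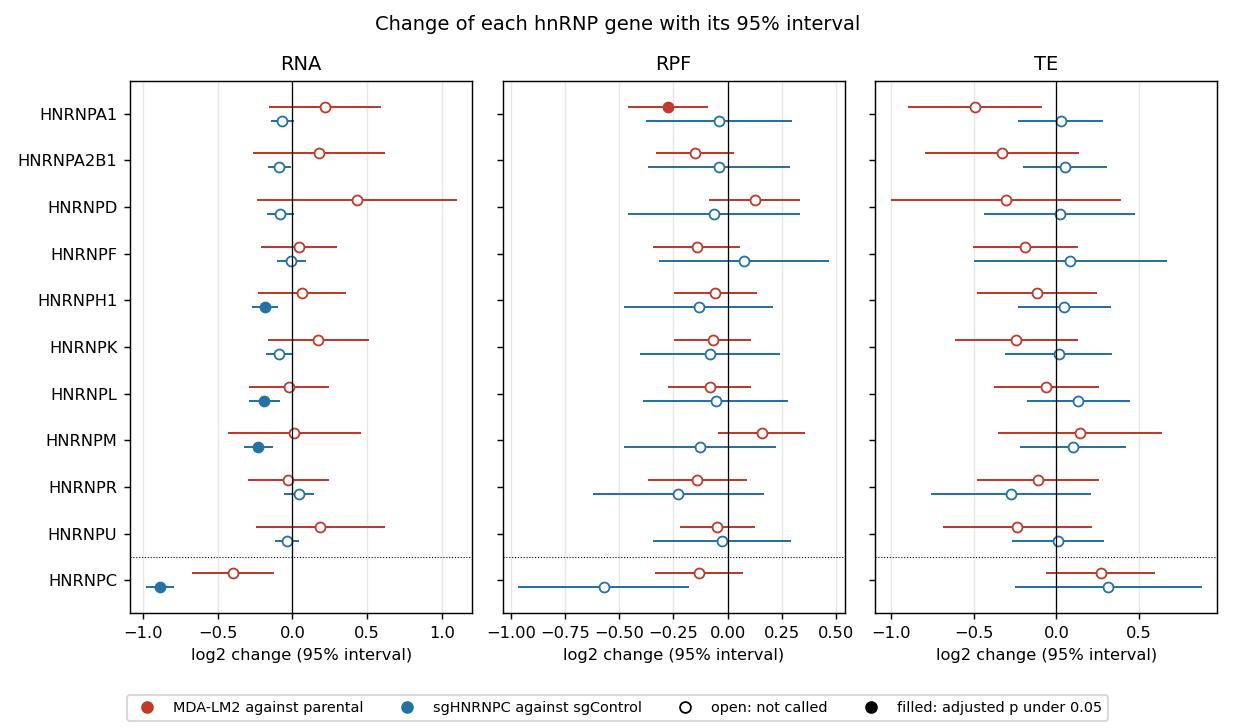
Log2 change of each gene in RNA, RPF and TE with its 95% interval, for MDA-LM2 against parental (red) and sgHNRNPC against sgControl (blue) cells; filled points passed an adjusted p of 0.05. The called values are HNRNPA1 RPF in MDA-LM2 (-0.28) and RNA of HNRNPM (-0.23), HNRNPL (-0.19), HNRNPH1 (-0.18) and HNRNPC (-0.89) in the knockdown.

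Of 15 further hnRNP-family genes, 14 were tested in the knockdown, where 3 fell and 1 rose in RNA, with a median change of -0.09. Over all genes tested 11.3% were called lower and 4.72% higher. PCBP1 (-0.19), a C-rich RNA binder related to HNRNPK, and PTBP1 (-0.18), which binds pyrimidine tracts and represses splicing, fell, as did RBMX (-0.17). HNRNPDL, a paralogue of HNRNPD, rose from 1737 ± 66.1 to 2064 ± 67.1 (0.25 ± 0.05, adjusted p = 3.37e-05). None of the 14 was called in RPF or TE, where 0.0233% and 0% of all genes were.

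In MDA-LM2 none of the 15 relatives was called in RNA or TE, while 2 rose and 2 fell in RPF. Over all genes tested 15.2% were called in RNA and 0.0357% in TE. In RPF 5.00% were called higher and 7.03% lower. HNRNPH3 (0.43 ± 0.12, adjusted p = 0.0157), a relative of HNRNPH1, and HNRNPDL (0.35 ± 0.11, adjusted p = 0.0412) rose. HNRNPUL1 (-0.48 ± 0.11, adjusted p = 0.00323), a relative of HNRNPU, and PCBP2 (-0.45 ± 0.10, adjusted p = 0.00157) fell. Each of these 4 RPF changes was larger in size than that of any of the 10 members. HNRNPDL was called higher by RPF in MDA-LM2 and by RNA in the knockdown, and in neither MDA-LM2 RNA nor knockdown RPF.

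Of 22 genes of the core spliceosome, all tested in both tables, 0 were called in MDA-LM2 RNA, where 15.2% of all genes were. In MDA-LM2 RPF 1 rose and 1 fell, against 5.00% and 7.03% of all genes. U2AF1, which reads the AG of the 3′ splice site, rose from 40.3 ± 5.77 to 62.7 ± 9.90 units (0.62 ± 0.20, limma adjusted p = 0.0346). SF3A2 fell (-0.37 ± 0.12, limma adjusted p = 0.0447). In knockdown RNA SNRPB, a core Sm protein, fell (-0.40 ± 0.08) and SF3B3 rose (0.21 ± 0.06), where 11.3% of all genes were called lower and 4.72% higher. Of 6 regulators of epithelial and mesenchymal splicing, ESRP1 was listed in neither table and 4 were tested in each. SRSF1, a serine and arginine rich splicing activator, fell in knockdown RNA from 2015 ± 28.5 to 1788 ± 72.8 (-0.17 ± 0.05, adjusted p = 0.00474), a change near those of the 3 called members. Calls of the relatives, spliceosome genes and splicing regulators were not followed through the alternative settings, so how far they depend on the processing is not known.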

How the data were processed

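Both deposited tables hold normalised signal, on a linear scale, for each transcript. The authors aligned reads with Bowtie2 2.3.5 after trimming with cutadapt 2.3 to 1 mRNA per gene, that with the longest coding sequence, and scaled counts by median-of-ratios factors, separately for each table and kind of library. The submitters' processing notes name hg38. RNA came from a stranded kit. Whether the RPF values were evened at stalling peaks is not given in the sources used here.

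The 10 members and the other lists were chosen with earlier results of these data known. Members, HNRNPC and, from each other list, up to 4 called genes with the largest change were named. Genes with means of at least 10 in RNA and in RPF were tested with limma 3.58.1 in R 4.3.3 on log2(value + 1), so that fold changes of low genes are understated, with empirical Bayes trend and Benjamini-Hochberg adjustment over all genes tested (8393 and 4283). RNA and RPF were fitted on their own 4 libraries and TE as an interaction. Tests were two-sided and were tested on simulated data. Groups came from sample titles. Transcripts were matched to GENCODE version 44 (97.9% of each table). No batch is labelled. Windows and sites were counted on the listed isoform, and reads of other isoforms could not be separated. The labels do not say that replicate numbers pair samples, so the fits reported used no pairing. TE values of single replicates, their overlap, and TE within each lysate took RPF and RNA of equal replicate number together. Alternatives were another added value (5), no filter, a replicate block, equal library totals, quantile normalisation, TE taken within each lysate, logistic regression, each replicate left out, and, chosen after seeing the data, HNRNPA1 summed with HNRNPA1L2 and a spline on GC content and length removed from each library. 1 gene of the list of relatives is not reported here and was left out of its counts.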

Additional observations from a re-analysis of the deposited data

Results flagged for a closer look

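HNRNPM RPFs lay on opposite sides in the 2 comparisons. Both MDA-LM2 libraries stood above both parental ones, a log2 change of 0.16, and both sgHNRNPC libraries stood below both sgControl ones, a log2 change of -0.13. The knockdown gap was narrow, with 83.9 units in sgHNRNPC replicate 1 and 84.2 in sgControl replicate 2. Of all genes, 25.7% had no overlap in the higher direction in MDA-LM2 RPF and 17.1% in the lower direction in knockdown RPF. Neither HNRNPM change was called, and the difference between the 2 changes was not tested. With 2 replicates a group, no sample could be singled out within a group.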

How the results depend on the processing

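Of 710 gene values recomputed, 618 kept their direction and their side of the threshold, 62 reversed, 11 lost a call and 19 gained one. Genes called were 1279 (MDA-LM2 RNA), 1010 (RPF) and 3 (TE), and 684, 1 and 0 in the knockdown. The cause of each difference below was not tested. With no filter on low values the call of HNRNPA1 RPF was lost, leaving 0 members, and 0 genes were called in MDA-LM2 TE and knockdown RPF. With equal totals 0 members were called in MDA-LM2 RPF, 0 genes in MDA-LM2 TE and 2 in knockdown RPF, and the members' median was 0.29 in MDA-LM2 RNA and -0.020 in RPF. There HNRNPL (0.15) and HNRNPR (0.14) reversed in RNA and HNRNPU (0.0084) in RPF. The median of all genes in MDA-LM2 RNA was 0.15 under equal totals, where it was -0.02 as reported, and in MDA-LM2 TE it was -0.08 against 0.03. Equal totals called 995 of 1493 MDA-LM2 RNA genes higher, where the reported fit called 487 of 1279, and 566 of 1043 RPF genes higher against 420 of 1010.

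Under quantile normalisation 0 members were called in MDA-LM2 RPF, 0 genes in MDA-LM2 TE and 6 in knockdown RPF, and 236 of 497 knockdown RNA genes were called higher, against 202 of 684. The members' median was 0.25 in MDA-LM2 RNA, 0.051 in MDA-LM2 RPF and -0.12 in knockdown RPF. Reversals under it were HNRNPL (0.14) and HNRNPR (0.087) in MDA-LM2 RNA, HNRNPH1 (0.060), HNRNPK (0.060), HNRNPL (0.043) and HNRNPU (0.077) in MDA-LM2 RPF, HNRNPF (0.016) in knockdown RNA, and HNRNPA1 (-0.042), HNRNPA2B1 (-0.013), HNRNPD (-0.032), HNRNPH1 (-0.056), HNRNPK (-0.088), HNRNPM (-0.00039) and HNRNPU (-0.099) in knockdown TE. TE within each lysate called 10 genes in MDA-LM2. Logistic regression called 181 genes and 5 members in MDA-LM2 TE and 11 genes in knockdown TE, where HNRNPD reversed (-0.0021).

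As alternatives chosen after seeing the data, summing HNRNPA1 with HNRNPA1L2 left 0 members called in MDA-LM2 RPF, and removing the trend on GC content and length gave 2, HNRNPA1 and HNRNPA2B1, with a median of -0.14. The latter reversed HNRNPL in MDA-LM2 RNA (0.055) and HNRNPA1 (0.017), HNRNPA2B1 (0.0022) and HNRNPU (0.076) in knockdown RPF, and called HNRNPC lower in MDA-LM2 RNA (-0.37, adjusted p = 0.0312). Deviations of equal-numbered samples from their group means correlated across genes at 0.23 between MDA-LM2 and parental RNA, 0.04 between their RPFs, and -0.0037 and 0.03 in the knockdown, and at 0.14 between MDA-LM2 RNA and RPF. These are hints from the data and not a pairing in the design. With the replicate number as a block 12 genes were called in knockdown RPF, 1775 in MDA-LM2 RNA and 1300 in MDA-LM2 RPF, and HNRNPC was called in MDA-LM2 RNA (adjusted p = 0.0363), while no member gained or lost a call.

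Leaving out each replicate in turn, MDA-LM2 RNA had 492 to 4235 genes and 0 to 7 members called and a member median of -0.066 to 0.33. Without parental replicate 2 it had 586 genes, and without MDA-LM2 replicate 2 it had 2828. MDA-LM2 RPF had 641 to 855 genes, 0 to 1 members and a median of -0.09 to -0.07, and MDA-LM2 TE had 0 to 7 genes and a median of -0.30 to -0.06. Knockdown RNA had 371 to 569 genes, 2 to 3 members and a median of -0.11 to -0.055. Knockdown RPF had 0 to 41 genes, with 41 without sgHNRNPC replicate 1, 15 without sgHNRNPC replicate 2 and 0 without sgControl replicate 2, and a median of -0.10 to -0.01. Knockdown TE had a median of -0.03 to 0.11. HNRNPC RNA in MDA-LM2 was called without MDA-LM2 replicate 1 (-0.49) and without replicate 2 (-0.31).

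Signs that turned over these fits, with their ranges, were in MDA-LM2 RNA those of HNRNPA1 (-0.0078 to 0.44), HNRNPA2B1 (-0.12 to 0.47), HNRNPD (-0.071 to 0.93), HNRNPH1 (-0.061 to 0.19), HNRNPK (-0.0014 to 0.35), HNRNPL (-0.094 to 0.050), HNRNPM (-0.29 to 0.31), HNRNPR (-0.12 to 0.066) and HNRNPU (-0.097 to 0.47). In MDA-LM2 RPF it was HNRNPH1 (-0.14 to 0.028), and in MDA-LM2 TE HNRNPD (-0.79 to 0.19), HNRNPM (-0.19 to 0.47) and HNRNPU (-0.53 to 0.064). In knockdown RNA they were HNRNPF (-0.049 to 0.035) and HNRNPR (-0.0022 to 0.093). In knockdown RPF they were HNRNPA1 (-0.091 to 0.0084), HNRNPA2B1 (-0.085 to 0.0065), HNRNPD (-0.30 to 0.18), HNRNPF (-0.21 to 0.36), HNRNPK (-0.18 to 0.017), HNRNPL (-0.15 to 0.035), HNRNPR (-0.47 to 0.018) and HNRNPU (-0.10 to 0.047). In knockdown TE they were HNRNPA1 (-0.022 to 0.075), HNRNPA2B1 (-0.029 to 0.13), HNRNPD (-0.20 to 0.24), HNRNPF (-0.19 to 0.36), HNRNPH1 (-0.030 to 0.12), HNRNPK (-0.046 to 0.071), HNRNPM (-0.040 to 0.24), HNRNPR (-0.57 to 0.020) and HNRNPU (-0.071 to 0.091). A count test on recovered RNA reads was not run. RPF depth in reads is unknown, and 2 replicates a group limit the precision.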
